A study of Homo sapiens with 4 samples.

Results

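The genes for enzymes that add methyl groups to histone lysines, or take them off, were compared between RNA recovered with the fragile X protein FMRP and RNA of the starting lysate. Members were the probe sets whose single symbol in the array's annotation names a lysine methyltransferase (KMT, SETD, SETDB, NSD, EHMT, EZH, SUV39H or DOT1L), a lysine demethylase (KDM) or a PRDM protein, with Y-linked genes left out. This gave 193 of 54675 probe sets, which carry 62 of the 19775 gene symbols on the array. Of the 62, 60 are protein-coding genes and 2, KMT2E-AS1 and KDM7A-DT, are noncoding RNAs named after a neighbouring member gene. ASH1L was not analysed here.

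The samples came from HEK293 cells, a human embryonic kidney line, of the Flp-In T-REx kind, where doxycycline turns on a transgene inserted into the genome. In both groups, cells had been given doxycycline at 1 µg/ml for 16 h, so the lysate, too, came from induced cells. Total RNA of the lysate was measured on 2 arrays, and RNA that came down with FMRP carrying a FLAG and HA tag in an anti-FLAG immunoprecipitation (IP) was measured on 2 arrays. The IP material had been washed in buffer with 300 mM KCl, and each array received label from 2 µg of RNA. The tagged protein was made from a transgene, and without a mock IP here, the RNA that would come down in its absence was not measured. Whether replicates were separate cultures is not in the labels, so the p-values measure only the spread between these samples, which may be technical. Of 6 genes listed for HEK293 cells, KRT8, KRT18, VIM, NEFL and INA lay above 4.70 on all 4 arrays and NEFM lay below it, where 4.70 is the median probe set level and the filter used for testing. The markers PTPRC, CD3E, ALB, MYH7 and COL1A2 of other cell types lay below 4.70 on all 4 arrays, DCN lay on both sides of it, and HBB, on a probe set that can cross-hybridize, stood between 5.42 and 5.87. FMR1 mRNA, of the precipitated protein itself, stood at 9.64 and 9.51 in the lysate and at 9.28 and 9.03 in the IP, on a probe set that can cross-hybridize. This difference of -0.42, IP minus lysate on the log2 scale, was called lower (limma adjusted p = 0.0261), as were 28.8% of all genes tested.

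Methylation of histone lysines marks the state of chromatin. Methyl groups on H3K4 are found at promoters and enhancers, those on H3K36 and H3K79 along transcribed genes, and those on H3K9, H3K27 and H4K20 largely in silent or compacted chromatin. Most of the methyltransferases act through a SET domain and DOT1L through an unrelated fold, while PRDM proteins combine a SET-like PR domain with zinc fingers. Demethylases are either flavin-dependent (the LSD type) or iron- and oxoglutarate-dependent (the JmjC type). FMRP binds mRNAs on ribosomes and in granules, and mRNAs of chromatin regulators are among those described as bound by it in brain.

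The mRNAs of histone lysine methyltransferases and demethylases were mostly higher in the IP. Of 59 member genes with a probe set above the filter, 40 rose (67.8%), 4 fell (6.78%) and 15 did not pass (limma, adjusted p at most 0.05), where 35.0% of the 13157 genes tested were called higher and 28.8% lower, or 63.9% in either direction. Their median change, IP minus lysate on the log2 scale, was 0.73 with an interquartile range of 0.22 to 1.21, beside a median of 0.08 and a range of -0.48 to 0.61 over all genes. At least 2-fold, 23 members were higher (39.0%, against 12.5% of all genes) and 2 were lower (3.39%, against 12.8%). Both IP arrays lay above both lysate arrays for 47 members and below them for 8, and the groups overlapped for 4, where all genes gave 45.1% above and 37.2% below. Against the lysate mean, IP replicate 1 gave a median over members of 0.66 and IP replicate 2 gave 0.77. Changes of 11 members ranked above those of 95% of all genes tested.

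**Figure D1:**
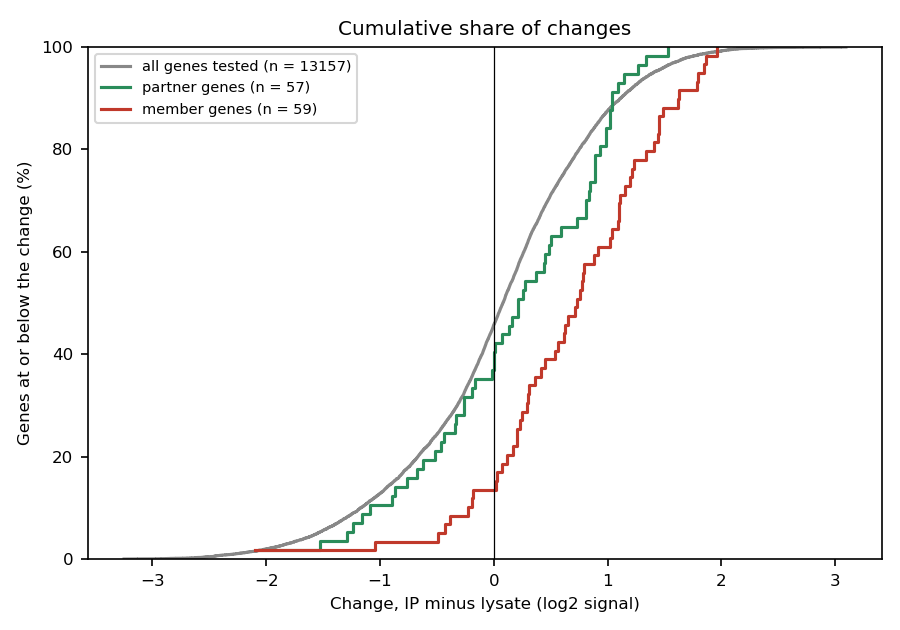
Cumulative share of genes (y axis, percent) at or below each change, IP minus lysate in log2 signal (x axis), for the 59 tested member genes, the 57 partner genes and all 13157 genes tested. Between about -1 and the highest member, SETDB1 at 1.96, the curve of the members lies to the right of the others, with a median of 0.73 against 0.21 for partners and 0.08 for all genes, and with arrays centred on hybridization controls these medians were 0.25, -0.27 and -0.40.

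These counts depend on how the arrays are set to a common scale. The spiked hybridization controls stood 0.48 higher in the IP, and centring every array on them moved the median change of all genes to -0.40 and that of the members to 0.25. The members then had 24 genes higher and 10 lower, which put 70.6% of their calls on the higher side, where it had been 90.9%, while over all genes the share of higher calls went from 54.9% to 24.7%. All 24 were among the 40 named above, which gives no separate support, since centring lowers every change by the same 0.48. With each of the 4 arrays left out in turn, 34 of the 40 higher genes and 3 of the 4 lower genes kept their call. The losses were EHMT2, KMT5C and SETD5 without lysate replicate 1, PRDM8 without lysate replicate 1 or IP replicate 1, KDM6B and SETD3 without any one of the 4 arrays, and SETD6 without lysate replicate 1 or IP replicate 1.

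**Figure D2:**
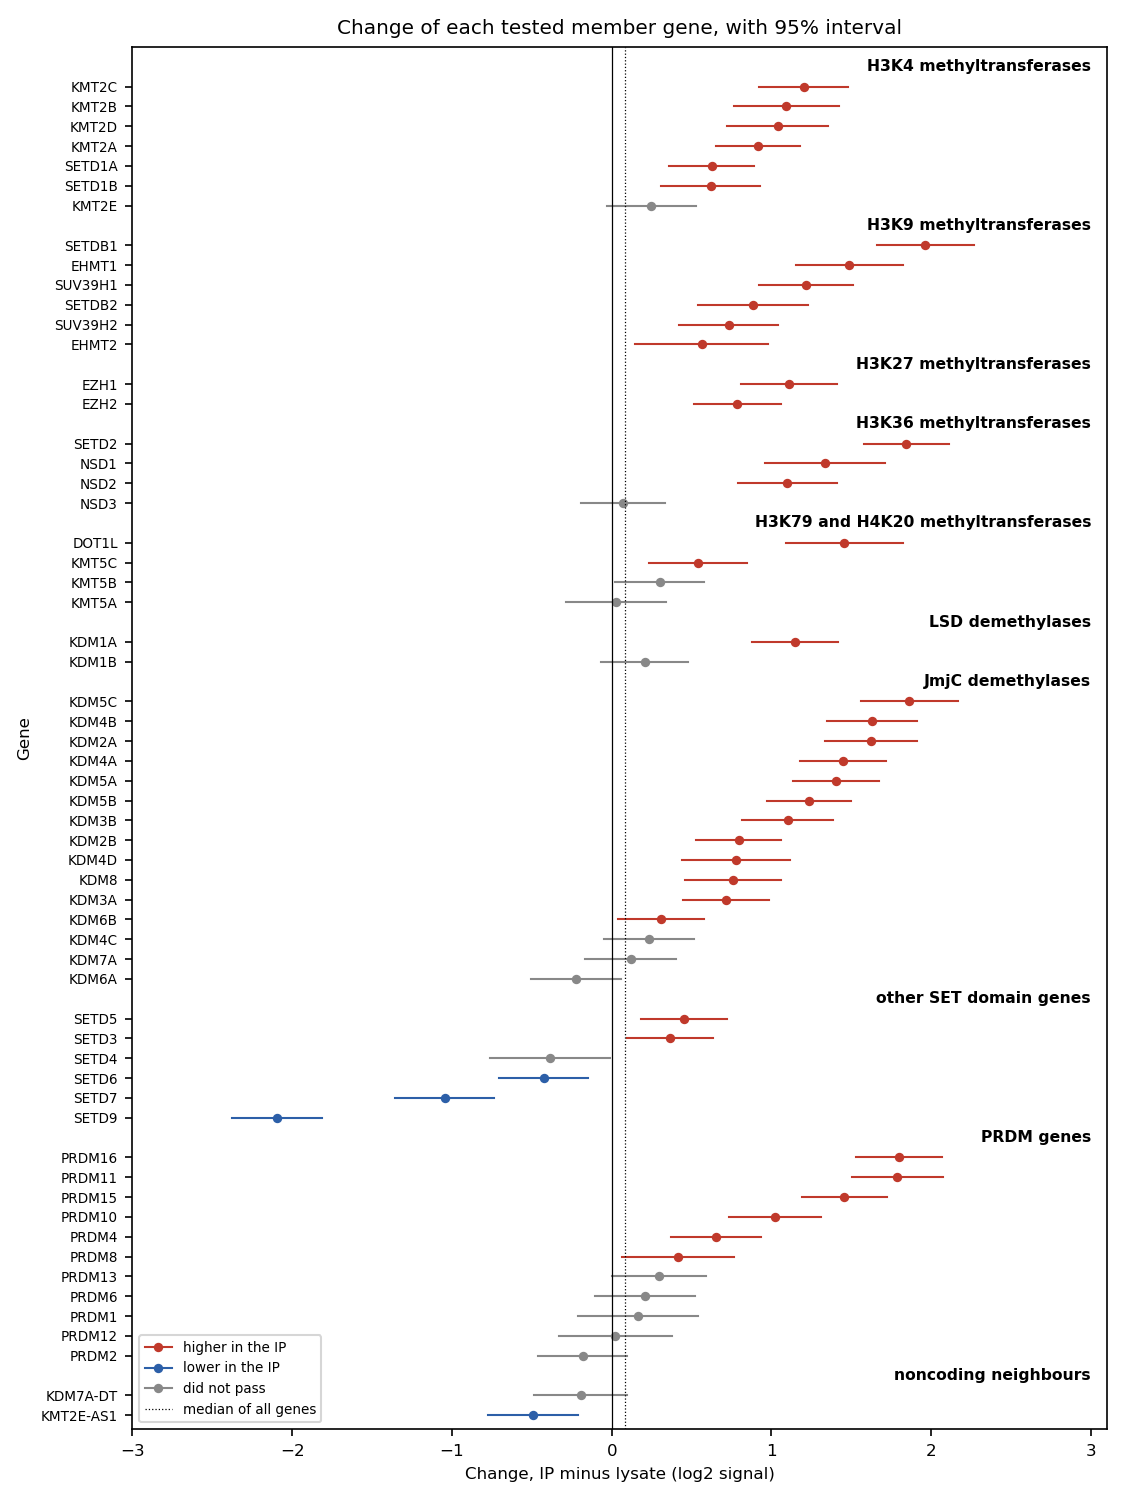
Change of each of the 59 tested member genes (x axis, IP minus lysate in log2 signal) with its 95% limma interval, grouped by role and coloured by call. The groups listed here as methyltransferases of named sites and as demethylases held no gene called lower, beside 28.8% of all genes. Of the 6 other SET domain genes 3 were lower, among them SETD9 at -2.09 and SETD7, which monomethylates H3K4, at -1.05. With arrays centred on hybridization controls 2 of the listed methyltransferases and 1 demethylase were called lower, beside 48.5% of all genes.

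Of the 7 genes grouped here as methyltransferases of H3K4, 6 were higher, with a median change of 0.92, beside 35.0% of all genes. SETD7, which also methylates H3K4, was grouped with the other SET domain genes and was lower (-1.05). KMT2C, a catalytic subunit of the complexes that methylate H3K4 at enhancers, stood at 7.67 and 7.51 on the lysate arrays and at 8.79 and 8.79 on the IP arrays. Both IP arrays lay more than 1 log2 unit above the lysate arrays, a 2.30-fold rise (log2 scale 1.20 ± 0.12 SE, n = 2 each, limma adjusted p = 9.7e-05). Its close relative KMT2D rose 2.05-fold, from 9.68 and 9.88 to 10.92 and 10.72. KMT2B, which acts at promoters, rose 2.13-fold, from 8.25 and 8.40 to 9.27 and 9.56. KMT2A, the MLL gene rearranged in leukaemia, rose 1.89-fold on the probe set that stands for it, from 8.17 and 8.18 to 9.08 and 9.11. SETD1A and SETD1B, the catalytic subunits of the complexes that place most H3K4 trimethylation, rose 1.54-fold each (log2 changes 0.63 and 0.62), and neither passed with arrays centred on hybridization controls (0.15 and 0.14). KMT2E, an MLL relative whose PHD finger reads H3K4 methylation, was the member that did not pass. It stood at 8.03 and 7.88 in the lysate and at 8.19 and 8.22 in the IP, and the change of 0.25 (95% interval -0.03 to 0.53) gave a limma adjusted p of 0.104.

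All 6 methyltransferases of H3K9 rose, with a median of 1.05, beside 35.0% of all genes that were higher. SETDB1, which silences retroelements together with TRIM28, had the largest rise among the 59 members. Its values were 7.83 and 8.07 in the lysate and 9.86 and 9.96 in the IP, a 3.90-fold rise (1.96 ± 0.13 SE on the log2 scale, n = 2 each, limma adjusted p = 3.5e-05), and its change ranked 118 among all 13157 genes. EHMT1, which pairs with EHMT2 to place H3K9 dimethylation, rose 2.80-fold, from 8.30 and 8.28 to 9.60 and 9.95. EHMT2 showed the smallest rise of the 6 (0.56), with lysate arrays at 7.74 and 8.27 and IP arrays at 8.52 and 8.61. Its lysate arrays lay far apart, and the change was 0.30 without lysate replicate 1, where it did not pass, and 0.83 without lysate replicate 2. Its 2 other probe sets above the filter, at -0.12 and -0.18, did not pass and were called lower with hybridization control centring (-0.60 and -0.66). When probe sets of a gene were averaged, 5 of the 6 genes were higher. The heterochromatin enzyme SUV39H1 rose 2.33-fold, from 8.61 and 8.83 to 9.94 on both IP arrays, and its relative SUV39H2 rose 1.66-fold. The other SUV39H2 probe set above the filter, at 0.20, did not pass. SETDB2 rose 1.84-fold, from 5.78 and 5.45 to 6.42 and 6.58. EHMT2, SUV39H2 and SETDB2 did not pass with arrays centred on hybridization controls (0.08, 0.25 and 0.40). At that setting 15.9% of all genes were higher.

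Both H3K27 methyltransferases, the alternative catalytic subunits of Polycomb repressive complex 2, rose, beside 35.0% of all genes. EZH1 stood at 6.93 and 7.15 in the lysate and at 8.09 and 8.21 in the IP, a 2.16-fold rise. EZH2, the form of dividing cells, stood at 8.37 and 8.50 against 9.22 and 9.22, a 1.72-fold rise (log2 change 0.79) that did not pass with hybridization control centring (0.31). The difference between the EZH1 and EZH2 changes was not tested, and their 95% intervals, 0.81 to 1.41 and 0.51 to 1.06, overlap.

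Of the 4 H3K36 methyltransferases measured, 3 rose, beside 35.0% of all genes, with a median of 1.22 over the 4. With unmarked probe sets only, whose names carry no mark for several transcripts or cross-hybridization, the median over the 3 genes that have one was 0.34, and 2 were higher. SETD2, which places H3K36 trimethylation behind the elongating polymerase, stood at 7.69 and 7.63 in the lysate and at 9.52 and 9.49 in the IP. This 3.59-fold rise (log2 scale 1.84 ± 0.11 SE, n = 2 each, limma adjusted p = 3.4e-05) was seen on each of its 3 probe sets, at 1.84, 1.69 and 1.37. NSD1, the Sotos syndrome gene, rose 2.53-fold, from 6.59 and 6.66 to 7.74 and 8.18. NSD2 rose 2.14-fold, from 9.53 and 9.31 to 10.44 and 10.60. NSD3 stood apart from its paralogs, at 8.89 and 8.88 in the lysate and at 8.99 and 8.93 in the IP. Its change of 0.07 (limma adjusted p = 0.607) had an interval of -0.19 to 0.34 at 95%, below the intervals of NSD1 (0.96 to 1.71) and NSD2 (0.79 to 1.41), and with hybridization control centring it was called lower at -0.41. The differences among the NSD genes were not tested.

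DOT1L, the H3K79 methyltransferase, rose 2.74-fold, from 7.76 and 8.18 to 9.39 and 9.46 (log2 scale 1.45 ± 0.16 SE, n = 2 each, limma adjusted p = 1.4e-04). With unmarked probe sets only, where another probe set stands for KMT5A, the median over 3 genes of this group was 1.34 in place of 0.42. KMT5C, which places H4K20 trimethylation, rose 1.46-fold, from 6.71 and 6.93 to 7.29 and 7.43, and did not pass without lysate replicate 1 (0.43) or with hybridization control centring (0.06). KMT5B stood at 7.32 and 7.40 against 7.59 and 7.72, a change of 0.30 that did not pass (limma adjusted p = 0.0577). KMT5A, the monomethylating enzyme needed in the cell cycle, was at 8.85 and 8.82 in the lysate and at 8.72 and 8.997 in the IP, and its groups overlapped. Its change of 0.03 turned to -0.45, called lower, with hybridization control centring, and the median of the 4 genes turned from 0.42 to -0.06.

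Among demethylases, 13 of 17 rose and none was lower, with a median of 0.80; with hybridization control centring 8 were higher, 1 (KDM6A) was lower and the median was 0.32. KDM1A, the LSD1 enzyme that takes methyl groups off H3K4 in the CoREST complex, stood at 9.33 and 9.42 in the lysate and at 10.51 and 10.54 in the IP, a 2.22-fold rise (log2 scale 1.15 ± 0.12 SE, n = 2 each, limma adjusted p = 1.0e-04). The other LSD gene, KDM1B, was at 6.14 and 6.05 against 6.26 and 6.34, a change of 0.21 that did not pass (limma adjusted p = 0.159).

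The JmjC genes that act on H3K4 rose together, all 3 of those measured, beside 35.0% of all genes. KDM5C, an X-linked intellectual disability gene, had the largest rise of any demethylase, 3.64-fold. It stood at 6.84 and 7.08 in the lysate and at 8.79 and 8.85 in the IP (log2 scale 1.86 ± 0.13 SE, n = 2 each, limma adjusted p = 3.5e-05). KDM5A, the retinoblastoma-binding protein gene, rose 2.65-fold, from 8.56 and 8.60 to 10.02 and 9.95, and KDM5B rose 2.35-fold, from 9.36 and 9.38 to 10.60 and 10.60.

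Among the demethylases of H3K9 and H3K36, KDM4B rose 3.09-fold, from 9.65 and 9.83 to 11.36 and 11.38, and KDM4A rose 2.73-fold, from 7.63 and 7.60 to 9.11 and 9.01. KDM4D rose 1.71-fold, from 5.44 and 5.70 to 6.23 and 6.47. KDM4C did not pass, at 7.16 and 6.99 against 7.32 and 7.30, a difference of 0.23 (95% interval -0.05 to 0.51). That interval lies below those of KDM4A (1.18 to 1.72) and KDM4B (1.35 to 1.91), and the differences were not tested. The H3K36 demethylase KDM2A, whose CXXC finger binds CpG islands, rose 3.08-fold, with means of 8.09 ± 0.13 (SD, n = 2) in the lysate and 9.72 ± 0.03 (SD, n = 2) in the IP, and its paralog KDM2B rose 1.74-fold. The H3K9 demethylases KDM3A and KDM3B rose 1.64-fold and 2.14-fold. KDM2B, KDM3A, KDM4D and KDM8 did not pass with hybridization control centring (0.32, 0.24, 0.30 and 0.28).

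The H3K27 demethylases KDM6A and KDM6B had changes of -0.22 and 0.31. KDM6A, also named UTX, stood at 7.32 and 7.18 in the lysate and at 6.97 and 7.09 in the IP. With -0.22 on this probe set it had the lowest change of the demethylases (limma adjusted p = 0.144). Its other probe set above the filter went the other way, at 6.43 and 6.44 against 6.76 and 6.58 (0.24, not passed). KDM6B changed by 0.31 (limma adjusted p = 0.0454), which did not pass without any one array and turned to -0.17 with hybridization control centring. KDM7A was at 6.77 and 6.87 against 7.01 and 6.86, a change of 0.12 that did not pass. KDM8, a JmjC protein with hydroxylase activity, rose 1.69-fold, from 6.39 and 6.17 to 6.99 and 7.09, while its other probe set above the filter, at 0.16, did not pass.

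The remaining SET domain genes, several of which act on proteins other than histones, went both ways. Of these 6, 2 rose and 3 fell, beside 35.0% and 28.8% of all genes, and the median change was -0.41. The share that rose is near that of all genes. SETD9, a little-studied gene, had the largest fall of all members. It stood at 7.34 and 7.45 in the lysate and at 5.24 and 5.36 in the IP, and was 4.27-fold higher in the lysate (log2 scale -2.09 ± 0.12 SE, n = 2 each, limma adjusted p = 3.4e-05). Its other probe set, under the filter, stood at 4.87 and 4.98 against 3.53 and 3.79. SETD7, which monomethylates H3K4 and many other proteins, was 2.07-fold higher in the lysate, at 9.95 and 9.80 against 8.95 and 8.71. SETD6, which methylates the NF-κB subunit RELA, fell by 0.43 on the log2 scale, from 8.27 and 8.22 to 7.75 and 7.89, while its other probe set fell by 0.83. The call at the probe set that stands for SETD6 was lost without lysate replicate 1 (-0.40) or IP replicate 1 (-0.36). SETD5, an intellectual disability gene, rose from 9.32 and 9.42 to 9.83 and 9.81, a change of 0.45 that turned to -0.03 with hybridization control centring. SETD3, the actin histidine methyltransferase, changed by 0.36, which did not pass without any one array and was -0.12 with hybridization control centring and -0.03 with the mean of its probe sets. SETD4 stood at 7.10 and 7.33 against 7.02 and 6.64 on a probe set that can cross-hybridize (-0.39, not passed), but its other probe set, at 5.64 and 6.02 against 6.70 and 6.62, was called higher at 0.83. SETD4 was called lower without IP replicate 1 (-0.58).

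PRDM genes, transcription factors of development and germ cells, were measured less well. Of 14, 3 had no probe set above the filter: PRDM14 stood between 4.39 and 4.97 on the 4 arrays, PRDM7 between 2.42 and 3.82, and PRDM9, the recombination hotspot factor, between 2.64 and 3.39. Of the 11 tested, 6 rose and none was lower, beside 35.0% and 28.8% of all genes, and the median change was 0.41. With hybridization control centring this median turned to -0.07, beside -0.40 over all genes. At that setting 4 were higher and 1 (PRDM2) was lower, beside 15.9% and 48.5% of all genes. PRDM16, a regulator of brown fat and of neural stem cells, stood at 6.18 and 6.27 in the lysate and at 8.03 and 8.02 in the IP, a 3.48-fold rise (log2 scale 1.80 ± 0.12 SE, n = 2 each, limma adjusted p = 3.4e-05). PRDM11 rose 3.45-fold, from 5.80 and 5.98 to 7.67 and 7.68, while its other probe set above the filter had a change of 0.21 that did not pass. PRDM15 rose 2.74-fold, from 6.81 and 6.73 to 8.23 and 8.22, and PRDM10 rose 2.03-fold, from 6.77 and 6.91 to 7.93 and 7.79, while its other probe set, at 4.68 and 5.04 against 4.93 and 4.79, did not pass. The other probe set of PRDM16, at 0.34, lost its call without any one array. On the probe sets that stand for these 4 genes both IP arrays lay above both lysate arrays.

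PRDM4 rose 1.57-fold, a change of 0.65 that did not pass with hybridization control centring (0.17). PRDM8 changed by 0.41 near the filter, with group means of 4.64 in the lysate, under the filter, and 5.05 in the IP. It was thus tested only through its IP arrays, and it did not pass without lysate replicate 1 (0.28) or IP replicate 1 (0.28). PRDM2, which encodes the tumour suppressor RIZ, had the lowest change, -0.18 (not passed), at 8.14 and 8.26 against 7.98 and 8.05 on the probe set that stands for it. Its other probe sets above the filter went both ways, at 0.56 (called higher) and at -0.44 (not passed). PRDM1, the plasma cell factor Blimp-1, stood between 5.16 and 5.62 on the 4 arrays and PRDM12 between 5.20 and 5.55, both with overlapping groups. PRDM13 had a change of 0.30 (limma adjusted p = 0.0741) and was called higher without IP replicate 1 (0.40), and PRDM6 had one of 0.21.

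**Figure D3:**
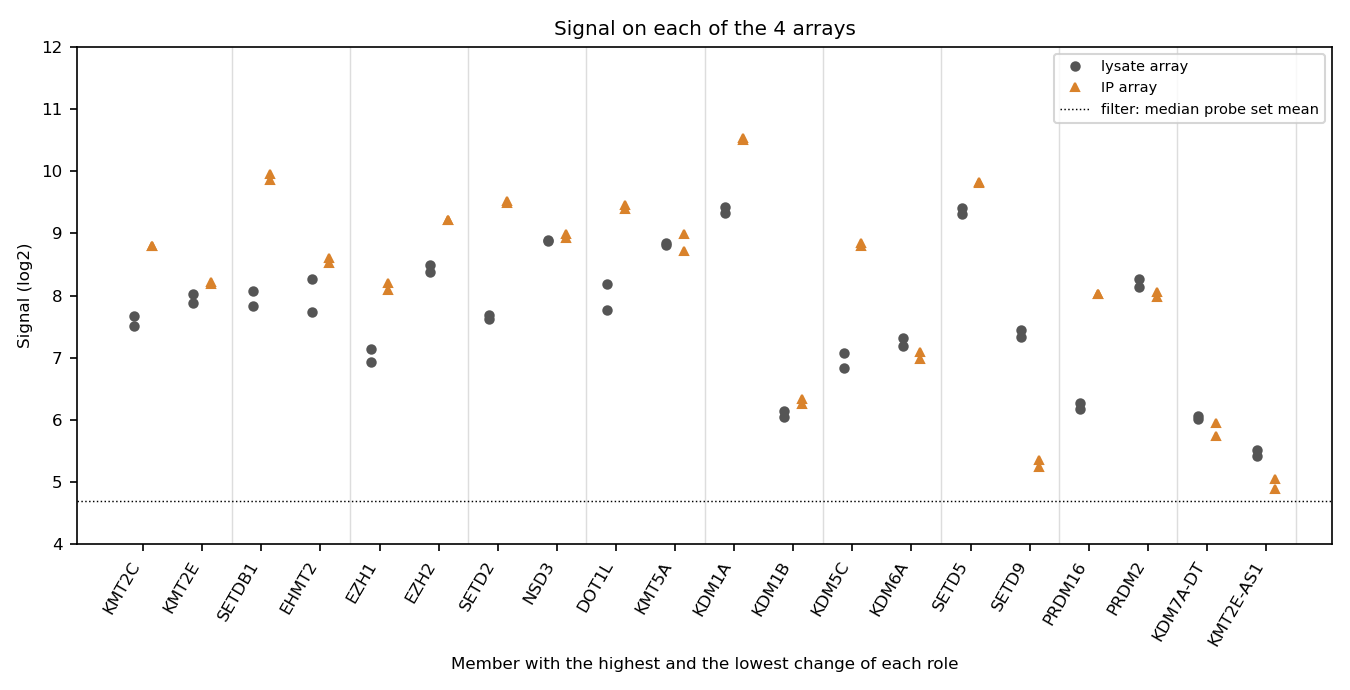
Signal (y axis, log2) on each lysate array (circles) and IP array (triangles) for the member with the highest and the lowest change of each role. For SETDB1, SETD2, KDM5C and PRDM16 both IP arrays lie above both lysate arrays, with changes of 1.96, 1.84, 1.86 and 1.80, and SETD9 lies lower in the IP at -2.09. Hybridization control centring lowers every change by 0.48, so it could not reverse these directions. The dotted line is the filter at 4.70.

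Of the 2 noncoding RNAs, 1 was lower, beside 28.8% of all genes, and 1 did not pass. KMT2E-AS1 fell from 5.41 and 5.51 to 5.05 and 4.90, a change of -0.49 (limma adjusted p = 0.00836). KDM7A-DT stood at 6.07 and 6.02 against 5.75 and 5.95, a change of -0.19 that did not pass (limma adjusted p = 0.21). KMT2E-AS1, with a mean of 5.22 over the 4 arrays, lay closer to the filter than KDM7A-DT, with 5.94. No strand is given for their probe sets in the sources used here.

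Of the 193 member probe sets, 139 passed the filter. The filter takes the mean over all 4 arrays, so a probe set can pass through 1 group alone. Examples are a PRDM16 probe set at 4.58 and 4.65 in the lysate and a KMT2A probe set at 4.05 and 3.80 in the IP. Whether such probe sets were tested depended on the group where they are high. At the level of single probe sets, adjusted over all 27281 tested, 85 of the 139 were higher (61.2%) and 10 were lower (7.19%), where 31.5% of all probe sets were higher and 28.0% lower. Probe sets of one gene share their mRNA and are not replicates. Of these, 71 of the 85 and 4 of the 10 kept their call without each array in turn. The lower count was 5 to 11 without one array. It was 6 without lysate replicate 1, 5 without lysate replicate 2 and 5 without IP replicate 2. The 4 were those of SETD9 and SETD7 and 1 each of SETD6 and KMT2A.

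Of the 39 member genes with 2 or more probe sets above the filter, 25 had changes of one sign on all of them (64.1%), beside 70.3% of 6246 genes overall. Over these members, the median distance between the highest and the lowest change of one gene was 0.63, beside 0.53 over all such genes. In 2 members, KMT2A and SETD5, probe sets were called in both directions, or 5.13% beside 4.77% of all genes. Both shares lie near those of all genes.

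All probe sets above the filter were called higher for 6 of the 19 members with 3 or more of them, beside 15.2% of the 2618 such genes overall: KDM2A, KDM5A, KDM5B, KMT2C, NSD2 and SETD2. Of these 6, KDM5B had the narrowest range, with 4 probe sets from 1.05 to 1.23, and KDM5A had 5 from 0.70 to 1.40. NSD2 had 6 from 0.34 to 1.58, of which the 2 lowest (0.34 and 0.41) were not called higher without some of the arrays. The lowest call of KMT2C (0.57) was lost without lysate replicate 2 and that of KDM2A (0.61) without lysate replicate 1. KDM4B had 6, of which 5 were higher, up to 2.20 on a probe set at 6.37 and 6.79 in the lysate and 8.84 and 8.71 in the IP, and 1 at 0.38 did not pass.

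Other members differed along their probe sets. KMT2A had 7, of which 3 were higher (0.92, 0.79 and 0.71), 3 did not pass (0.28, 0.17 and -0.07, the first called higher without lysate replicate 2) and 1 fell, from 5.83 and 5.89 in the lysate to 4.05 and 3.80 in the IP, below the filter level, so no fold is given. For KMT5A the probe set that stands for the gene did not pass (0.03), while the other 3 were higher at 1.34, 1.03 and 0.71, the last of them not without lysate replicate 2. KMT2D had 3 higher, at 1.04, 0.93 and 1.08, and 2 that did not pass, at 0.55 and -0.10. On the former the IP arrays stood at 6.25 and 7.29, and it was called higher without IP replicate 1 (1.07). EZH1 had 2 higher, at 1.11 and 1.25, and 2 that did not pass, at 0.28 and -0.06. For NSD3 none of 5 was higher and 2 were lower, at -0.39 and -0.45. The first call was lost without any one array, and the second was lost without either lysate array or without IP replicate 2. Another NSD3 probe set, at -0.47, was called lower without IP replicate 1 (-0.95). The 5 of KDM6B lay between 0.31 and 0.48, of which 2 were called higher and 3 did not pass. The probe set that stands for KDM6B (0.31) was among those 3 (limma adjusted p = 0.0591 over probe sets), though the gene was called higher at the gene level. KMT2E had 1 called lower (-0.45), on a probe set that can cross-hybridize, and not without lysate replicate 1 or IP replicate 2. The lower probe set of SETD5 (-0.36) lost its call without any one array. NSD1 had 2 probe sets under the filter that stood lower in the IP, 1 at 5.39 and 5.77 against 3.93 and 2.85 and the other at 4.26 and 4.87 against 3.37 and 2.75, beside 2 above the filter at 1.34 and 0.57, the latter not called without IP replicate 1 (0.33). KDM7A had 1 called higher, at 4.37 and 4.73 against 5.97 and 5.85, beside the one at 0.12 that stands for the gene. The lysate mean of the former lay under the filter, so it was tested only through its IP arrays. Which part of each mRNA a probe set lies in was not analysed here.

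**Figure D4:**
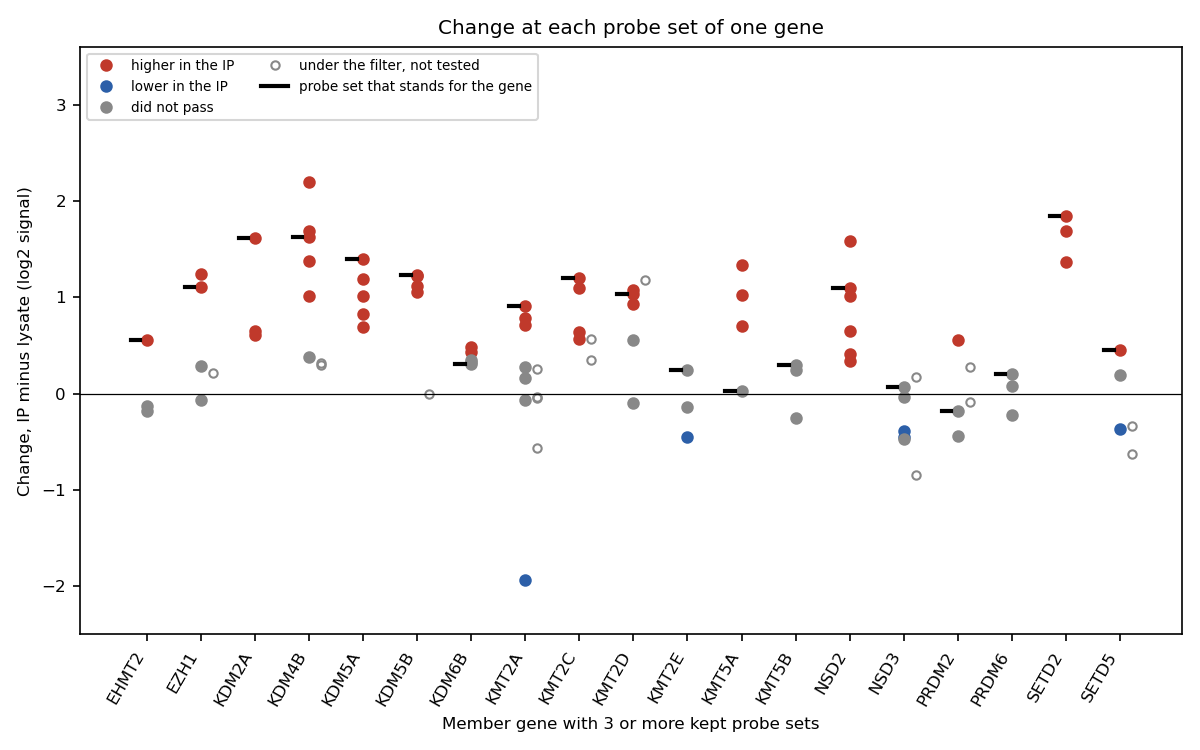
Change (y axis, IP minus lysate in log2 signal) at every probe set of the 19 member genes with 3 or more probe sets above the filter, coloured by call, with open circles for probe sets under the filter and a black dash at the one that stands for the gene. The probe sets of KDM5B above the filter run from 1.05 to 1.23, and KMT2A holds 3 called higher and 1 called lower, whose IP arrays lie below the filter level, so its depth on the plot is no measured size; with arrays centred on hybridization controls every point would lie 0.48 lower.

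Most of the higher members lay at a mean signal of 6 or more. Of 35 members with a mean of 8 or more, 27 were higher (77.1%, beside 40.4% of all genes at that level), and of 18 with a mean of 6 to 8, 11 were higher (61.1%, beside 37.2%). Only 6 members lay between the filter and 6, of which 2 were higher and 1 was lower, beside 21.0% and 17.6% of all genes at that level. Of the 59, 34 were represented by a probe set without a mark for several transcripts or cross-hybridization, and 2, SETD4 and PRDM12, by one that can cross-hybridize.

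Partner and neighbour genes, which are no members, were more mixed. Of 57 genes for subunits of the complexes these enzymes work in, for readers of their marks and for other SET and JmjC proteins, 26 rose (45.6%) and 16 fell (28.1%), beside 35.0% and 28.8% of all genes, and their median change was 0.21. The share that fell is near that of all genes. With hybridization control centring 14 were higher and 25 lower, and the median was -0.27, where 15.9% of all genes were higher and 48.5% lower. The difference between members and partners was not tested.

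In the complexes that methylate H3K4, 4 of 11 partners were higher and 3 lower, near the shares of all genes, and the median of 0.16 turned to -0.32 with hybridization control centring. HCFC1, the host cell factor, rose from 9.21 and 9.42 to 10.37 and 10.24 (0.99). DPY30, a small core subunit, stood at 10.08 and 9.88 in the lysate and at 7.99 and 7.84 in the IP, 4.19-fold higher in the lysate (limma adjusted p = 3.4e-05). Both other lower genes were picked out here with their values known. They were NCOA6 (-0.33), which lost its call without any one array, and PSIP1 (-0.52), which lost it without lysate replicate 1 or IP replicate 2.

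Around EZH1 and EZH2, 3 of 10 Polycomb repressive complex 2 genes rose and 5 fell, beside 35.0% and 28.8% of all genes. The share that rose is near that of all genes. The median over the 10 was -0.22, and -0.70 with hybridization control centring. JARID2, a cofactor that recruits the complex, rose from 8.57 and 8.74 to 9.79 and 9.80 (1.14), and AEBP2 fell from 7.88 and 7.53 to 6.60 and 6.22 (-1.29). The core subunit gene SUZ12 fell from 10.00 and 9.71 to 8.87 and 8.67 (-1.08). EED, also a core subunit gene, stood at 9.34 and 9.38 against 9.46 and 9.42 (0.07, not passed). With hybridization control centring EED was called lower at -0.41. SUZ12 and EED are named after their values were seen.

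Of 9 readers and partners of H3K9 methylation, 6 rose and 3 fell, beside 35.0% and 28.8% of all genes. The share that fell is near that of all genes, and the median over the 9 was 0.60. With hybridization control centring the median was 0.12, with 4 higher and 3 lower. TRIM28, the corepressor that recruits SETDB1, rose from 11.26 and 11.40 to 12.31 and 12.42 (1.04). CBX1, which encodes a heterochromatin protein, stood at 9.81 and 9.61 against 8.22 and 8.14 and was 2.88-fold higher in the lysate. Its relatives, named after their values were seen, were CBX5 at -1.15 and CBX3 at 0.44, the latter not passing without lysate replicate 2 (0.31) or IP replicate 2 (0.41) and turning to -0.04 with hybridization control centring.

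Of 6 DOT1L partners, 2 rose and 3 fell, beside 35.0% and 28.8% of all genes, so the share that rose is near that of all genes. The median over the 6 was -0.30, and -0.78 with hybridization control centring. MLLT1 rose from 9.05 and 9.24 to 10.12 and 10.25 (1.04), and MLLT10 fell from 8.21 and 8.11 to 7.01 and 6.85 (-1.24), with its 5 other probe sets from -1.91 to -0.91. Among 7 partners of LSD1, 3 were higher and 1 lower, beside the same shares of all genes. The median of 0.13 turned to -0.35 with hybridization control centring. HDAC1 rose from 10.78 and 10.87 to 11.76 and 11.92 (1.02), and RCOR3 fell from 7.31 and 7.17 to 6.60 and 6.36 (-0.76).

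Other SET and JmjC genes had 8 of 14 higher and 1 lower, beside 35.0% and 28.8% of all genes. Their median of 0.48 was 0.00 with hybridization control centring. JMJD6, a JmjC hydroxylase, rose 2.89-fold, from 9.29 and 9.29 to 10.75 and 10.89. SMYD2 was the lower gene, at -0.34, and lost its call when either lysate array or IP replicate 1 was left out.

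**Figure D5:**
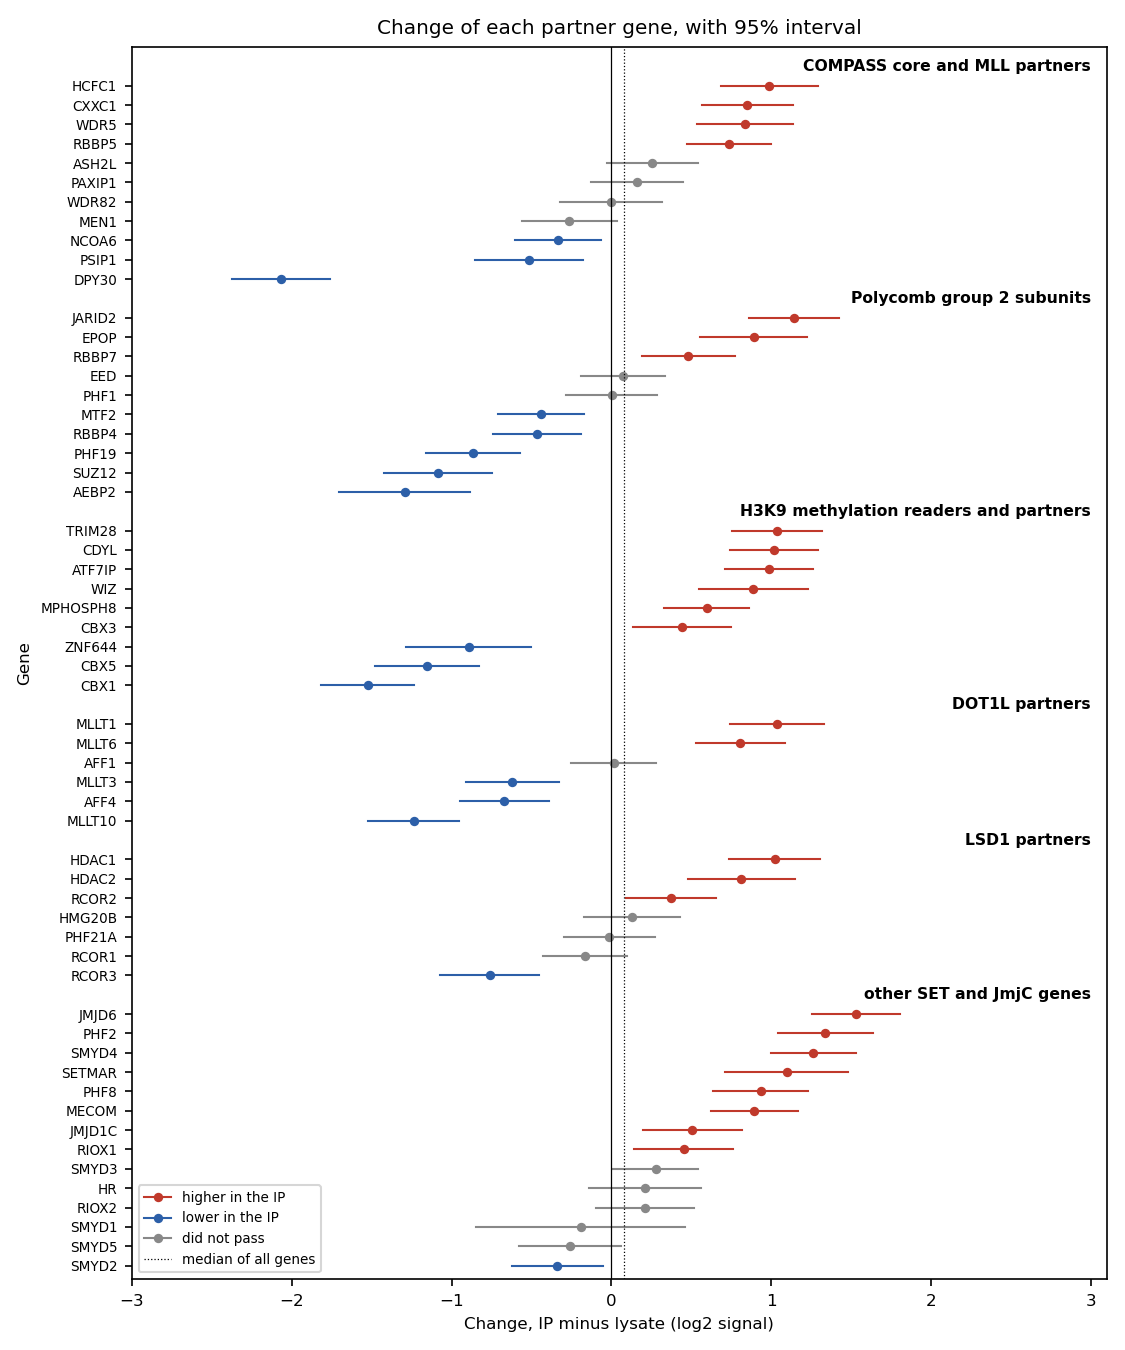
Change of each of the 57 partner genes (x axis, IP minus lysate in log2 signal) with its 95% limma interval, by group and coloured by call. Each group holds genes on both sides of 0, from DPY30 at -2.07 to JMJD6 at 1.53; with arrays centred on hybridization controls all changes lie 0.48 lower.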

How the data were processed

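Members and gene lists were chosen with earlier results of these data known. RNA of 2 lysates and 2 immunoprecipitates was measured on Affymetrix human expression arrays, 1 per sample. The table deposited by the authors holds 1 signal per probe set, taken as log2 because values span 1.68 to 13.98 and array medians lie at 4.67 to 4.71. How the authors corrected, summarised and normalized the signals is not given in the sources used here. Without detection calls no floor is known for low values. The number of arrays limits the precision.

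Symbols came from the platform annotation. Of 54675 probe sets, 62 were controls, 41091 had 1 symbol, 1801 had several and 11721 had none; 41037 matched the GRCh38.p14 gene table through the Entrez number. Probe sets with a mean of at least 4.70 were kept, and the kept probe set with the highest mean stood for its gene. The difference between groups was estimated in R 4.3.3 by limma 3.58.1 (lmFit, then eBayes without covariates, with 2 residual and 5.51 prior degrees of freedom), over 13157 genes and, separately, 27281 probe sets, with Benjamini-Hochberg adjustment. The fit was tested on simulated data. Every member could be named. Values per array were to be given for the highest and lowest change of each role, for members with 3 or more probe sets, and for the highest and lowest partner of each group; per-array values of other members were added after their values were seen. Alternatives covered scaling, filter, choice of probe set, prior, threshold, replicate block and leaving out each array. Coordinates are not printed, and no sequences of these mRNAs or of probes were used here. Figures used matplotlib 3.10.9 and pandas 2.3.3.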

Additional observations from a re-analysis of the deposited data

How the results depend on the processing

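With arrays centred on hybridization controls, member genes numbered 24 higher and 10 lower (median 0.25), partner genes 14 and 25, and member probe sets 52 and 28. With a change of at least 2-fold the counts were 23 and 2, 9 and 6, and 48 and 3. At an adjusted p of at most 0.01, 4 member probe sets were lower. With the mean of a gene's probe sets the members' median was 0.64. Among the 25 members whose probe sets share a sign, 22 were higher and 1 lower (median 1.23), and among 23 such partners 12 and 8. These genes were selected by the same changes that are counted here, so the counts and the median give no separate support. No share over all genes was computed under this selection. Without each array in turn, 5 to 11 member probe sets were lower. Hybridization control centring lowers every change by 0.48 and turned 15 members from above to below 0. Of these, 9 were called under neither setting (-0.46 to -0.18 when centred), and the others were KDM6B (-0.17), KMT5A (-0.45), NSD3 (-0.41), PRDM8 (-0.066), SETD3 (-0.12) and SETD5 (-0.027). SETD3 reversed with the mean of its probe sets (-0.027), and PRDM2 (0.56) and SETD4 (0.83) with unmarked probe sets only, where another probe set stands for the gene. Quantile normalization, no filter, a filter at 6, a trended or robust prior and unmarked probe sets kept each of these counts within 1.5 times. With the replicate number as a block, 39 members were higher and 4 lower. Deviations of same-numbered arrays correlated at 0.10 over genes. With 2 pairs this does not show whether they share a culture or day, which the labels leave unsaid. The planned protein lengths and identities were not run.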
